A study of Mus musculus with 2 samples.

Results

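DNA replication and S phase genes were followed in LSK CD150+ bone marrow cells from a mouse model with floxed Runx1 and the Mx1-Cre transgene. The set holds 39 genes of 31053 listed in the count matrices, and all 39 were found by symbol. It was a fixed list of genes for origin licensing, replication forks, nucleotide supply, new chromatin, checkpoints and the G1/S switch. No measured value served as a filter for a gene, but the list was chosen with earlier results of these data known. LSK CD150+ cells are lineage-negative, Sca-1-positive, Kit-positive marrow cells that also carry the SLAM receptor CD150, a gate that holds stem cells and early progenitors. The study made 1 droplet library of such cells labelled RUNX1 WT and 1 labelled RUNX1 KO, to compare the makeup of both populations. Mx1-Cre acts in interferon-responsive cells and so in many cell types of the marrow. How Cre was induced, the age and number of the animals, and whether the WT cells carried floxed alleles or Cre are not given in the sources used here.

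With 1 library per genotype there is no replicate, so no test was made and every interval below is an exact 95% interval for counting error only. Runx1 itself was at 104 CPM in the WT and 196 CPM in the library labelled KO, where CPM is the UMIs of a gene per 1000000 UMIs of the cells summed. The deleted exons are not named in the labels, and 3′ tags need not reach them, so the count does not check the genotype and that library is called KO-labelled throughout. Of 9969 and 11398 barcodes, 9472 WT and 10769 KO-labelled cells had at least 500 genes and at most 10% mitochondrial UMIs, with a median of 9884 and 9310 UMIs per cell. The libraries shared 33 kept barcodes. By sex-linked transcripts, 6690 WT cells were male and 9 female, against 973 male and 8927 female KO-labelled cells, so sex and genotype are largely confounded, and values in male cells are given where they matter. The labels do not say whether animals of both sexes were pooled, so it is not known from which animals the male KO-labelled cells came, and the ratios in male cells hold only if the library labels do. The sort antigens were present, with Kit at 150 CPM in the WT and 141 in the KO-labelled library, Ly6a (Sca-1) at 35.5 and 49.0, and Slamf1 (CD150) at 17.5 and 28.5. Lineage transcripts were low: Cd3e, Cd4, Cd8a and Ly6g lay below 0.3 CPM in both libraries, and Itgam was at 1.83 and 3.47 CPM. Ptprc (CD45), which most blood cells including progenitors carry, was at 85.4 and 88.3 CPM. Other markers differed between the libraries: the basophil genes Mcpt8 and Prss34 were at 108 and 109 CPM in the WT and 0.755 and 0.0587 CPM in the KO-labelled library. Of the 5 mature neutrophil genes Camp was at 16.1 and 101 CPM, and the stem cell regulator Mecom was at 59.0 and 21.8 CPM. Cells with 10 or more UMIs per 10000 of basophil genes numbered 79 and 0, and of neutrophil genes 6 and 27; without them the summed replication ratio given below was 0.873 and the share of cells at 20 or above 69.3% and 51.1%.

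Before each S phase, cells load the MCM2-7 helicase onto origins with the help of ORC, CDC6 and CDT1, and cyclin-dependent and DBF4-dependent kinases then turn it into the moving CMG helicase with CDC45 and GINS. Transcription of most of these genes peaks at the G1/S boundary, when E2F factors are released from the retinoblastoma protein family. Most long-term stem cells of adult marrow are quiescent, and progenitors below them divide often, so the level of replication genes in a sorted marrow population is widely read as a measure of how much of it is in cycle.

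The promoters of 4 members are shown because they carry an E2F-type element beside the start of genes described below. The element was searched as TTTGGCGC, TTTCCCGC, TTTCGCGC or TTTGCCGC on both strands, where matches may overlap, in the 250 bases before RefSeq start sites (GRCm38.p6). Each line runs 5′ to 3′ toward the start site, and capitals mark the matches.

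Mcm6: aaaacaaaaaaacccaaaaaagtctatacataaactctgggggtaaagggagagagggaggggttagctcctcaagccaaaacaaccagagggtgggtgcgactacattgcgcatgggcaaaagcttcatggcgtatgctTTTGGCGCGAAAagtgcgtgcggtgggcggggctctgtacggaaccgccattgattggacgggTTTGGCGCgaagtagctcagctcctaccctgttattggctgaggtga

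Mcm7: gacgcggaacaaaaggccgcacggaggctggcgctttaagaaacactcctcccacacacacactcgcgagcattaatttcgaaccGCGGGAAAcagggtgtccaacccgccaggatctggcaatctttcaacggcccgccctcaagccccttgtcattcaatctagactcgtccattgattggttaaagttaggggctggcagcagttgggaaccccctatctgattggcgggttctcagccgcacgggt

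Mcm5: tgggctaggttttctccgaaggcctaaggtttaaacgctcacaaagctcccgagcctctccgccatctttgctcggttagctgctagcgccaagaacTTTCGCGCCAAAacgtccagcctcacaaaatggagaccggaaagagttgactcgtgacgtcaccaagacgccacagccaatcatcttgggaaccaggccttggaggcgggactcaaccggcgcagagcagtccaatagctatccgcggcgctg

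Dtl: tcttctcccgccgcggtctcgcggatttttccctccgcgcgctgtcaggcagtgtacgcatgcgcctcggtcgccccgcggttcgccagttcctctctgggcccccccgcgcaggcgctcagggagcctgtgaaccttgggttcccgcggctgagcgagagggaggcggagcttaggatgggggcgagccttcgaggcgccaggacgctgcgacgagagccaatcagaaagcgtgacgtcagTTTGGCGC

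The Mcm6 window lies at chr1:128359706-128359955 on the minus strand, and its match farthest from the start begins 110 bases before it. For Mcm7 the window shown is chr5:138171884-138172133, minus strand, with its match 165 bases before the start. The gene model used here for gene positions reaches further upstream, to 138172422, so the window lies inside it. Another Mcm7 window, chr5:138171267-138171516, held no match. The Mcm5 window, chr8:75109259-75109508 on the plus strand, has its first match 153 bases before the start, and that of Dtl, chr1:191575545-191575794 on the minus strand, has its match 8 bases before it. RefSeq windows matched 30 of the 39 members by symbol (34 windows, as some genes have several start sites). Of these 34 windows 5 held the element, or 14.7%, the fifth belonging to Cdc6, against 1.86% of all 32851 windows. Among 72 windows of other replication genes, 21 held it, or 29.2%. The CCAAT box, searched as CCAAT on both strands after the first results had been seen, stood in 21 of the 34 windows, or 61.8%, and in 33.8% of all windows. These matches describe letters only.

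Summed over the 39 genes, the replication level was 3899 CPM in WT cells and 3408 CPM in KO-labelled cells, a difference of 491 CPM and a ratio of 0.874 (0.870 to 0.878). Of the 37 members that reached 20 CPM in either library, 36 were lower in the KO-labelled library, where 65.1% of all 5904 genes at that level were lower. At least 1.2-fold lower were 15 of the 37, against 15.1% of all genes, and none was 1.5-fold lower, against 2.03%. The median log2 ratio was -0.20 for the members and -0.07 for all genes. The size of the difference depends on what the level is relative to. With TMM scaling, which sets the typical gene near equality, the summed ratio was 0.935. Of the 37 members at 20 CPM, 27 were then lower, against 42.7% of all genes, and 5 were at least 1.2-fold lower, against 7.22%. With ribosomal protein and mitochondrial genes left out of the totals the summed ratio was 0.908, with 31 of 39 lower, against 54.2%, and 8 at least 1.2-fold lower, against 11.7%. In male cells the ratio was 0.852, and 13 of 37 members were at least 1.2-fold lower, against 18.5% of all genes.

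**Figure D1:**
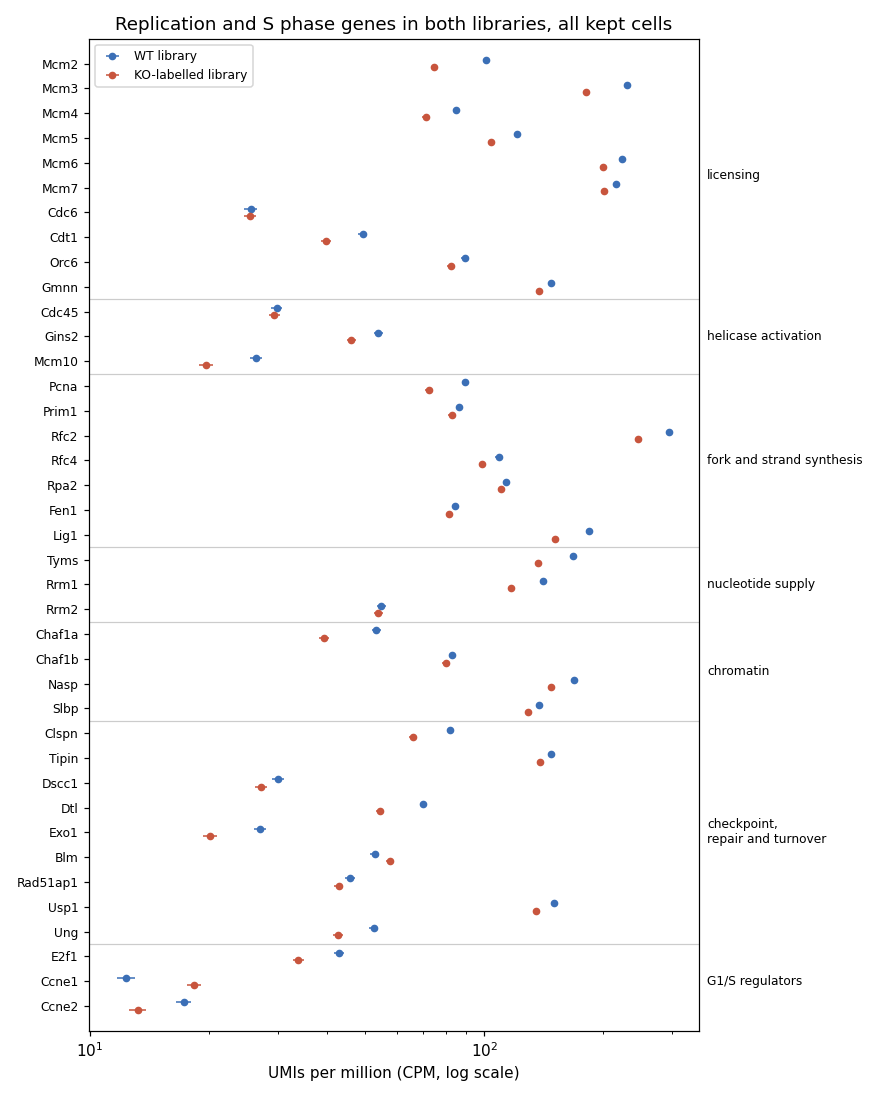
Level of each member in all kept cells of the WT library (blue) and the KO-labelled library (red), in CPM on a log axis, grouped by role; bars are exact 95% Poisson intervals and are mostly smaller than the points. The KO-labelled point lies to the left for all members except Blm and Ccne1, and the points of Cdc6 coincide.

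The licensing genes formed a graded series. Together these 10 genes were at 1288 CPM in the WT and 1118 CPM in the KO-labelled one, a ratio of 0.868 (0.861 to 0.874), and 3 of them were at least 1.2-fold lower. Mcm3, a subunit of the helicase ring, had the highest WT level of the group at 230 CPM (227 to 233) and was at 181 CPM (179 to 184) in the KO-labelled cells, a ratio of 0.789 (0.775 to 0.803). Mcm6, another subunit of the ring, was at 224 CPM (221 to 227) and 200.4 CPM (198 to 203), a ratio of 0.895 (0.879 to 0.911). The 6 subunits assemble in equal numbers, yet their ratios were unequal: Mcm2 stood lowest at 0.739 (0.719 to 0.760), from 101 to 74.7 CPM, and Mcm7 highest at 0.932 (0.916 to 0.949). Mcm7 overlaps Cops6 and Ap4m1 on the opposite strand. The origin-binding subunit Orc6 was at 89.2 and 82.2 CPM, and the loader Cdt1 at 49.1 and 39.6 CPM. Its inhibitor geminin, encoded by Gmnn, was at 148 and 138 CPM. The loading ATPase Cdc6 differed by less than counting error, with 25.5 CPM in each library and a ratio of 0.997 (0.947 to 1.05).

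The 3 genes that turn the loaded helicase on were as different from each other. Gins2, a subunit of the GINS ring, was at 53.9 CPM in the WT and 46.0 CPM in the KO-labelled one, a ratio of 0.855 (0.824 to 0.887). Cdc45, its partner in the CMG helicase, was at 29.7 and 29.3 CPM, and its interval reached 1 (0.941 to 1.03). Mcm10, which helps the helicase leave the origin, was at 26.4 and 19.7 CPM, a ratio of 0.746 (0.706 to 0.788). Thus only Gins2 and Mcm10 of the 3 were separated from equality by more than counting error.

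Fork and strand synthesis genes, 7 in all, summed to 963 CPM and 842 CPM, a ratio of 0.874 (0.867 to 0.882). Rfc2, a subunit of the clamp loader, was at 295 CPM (292 to 298) and 245 CPM (242 to 248), a ratio of 0.831 (0.818 to 0.844). The DNA ligase Lig1, which seals Okazaki fragments, was at 185 CPM (182 to 187) and 151 CPM (149 to 153), a ratio of 0.817 (0.801 to 0.833). The sliding clamp Pcna was at 89.6 and 72.4 CPM, a ratio of 0.808, but has 2 named pseudogenes that could share its reads. These 3 genes made up the members of the group at least 1.2-fold lower. The clamp loader subunit Rfc4 had a ratio of 0.910, and Prim1 (primase), Fen1 (flap nuclease) and Rpa2 (single-strand binding) lay between 0.959 and 0.968. With TMM scaling Prim1, Fen1 and Rpa2 turned to 1.03, 1.03 and 1.04.

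Nucleotide supply had the lowest summed ratio of the 7 roles, 0.846 (0.834 to 0.858), from 364 to 308 CPM over 3 genes. Thymidylate synthase, Tyms, was at 168 CPM (166 to 171) in the WT and 137 CPM (135 to 139) in the KO-labelled cells, a ratio of 0.813 (0.796 to 0.830); a Tyms pseudogene is annotated. Rrm1, the large subunit of ribonucleotide reductase, was at 141 CPM (138 to 143) and 117 CPM (115 to 119), a ratio of 0.832 (0.813 to 0.851). Its partner Rrm2, the subunit made mainly in S phase, was at 54.8 and 53.9 CPM, with an interval that spanned 1 (0.949 to 1.02). The subunits of this enzyme therefore differed in ratio beyond their intervals.

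Chromatin genes showed the same spread within a single complex. The histone chaperone Nasp was at 169 CPM and 147 CPM, a ratio of 0.871 (0.854 to 0.890), and Slbp, which binds histone mRNA, at 138 and 129 CPM, a ratio of 0.934 (0.913 to 0.955). Chaf1a, the large subunit of chromatin assembly factor 1, was at 53.2 CPM (51.9 to 54.6) and 39.3 CPM (38.2 to 40.5), a ratio of 0.739 (0.711 to 0.768). Chaf1b, of the same complex, was at 83.0 and 80.0 CPM, a ratio of 0.963 (0.936 to 0.991), and turned to 1.03 with TMM scaling. Chaf1a overlaps Ubxn6 on the opposite strand, and Nasp has a named pseudogene.

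Checkpoint, repair and turnover genes held both low ratios and the highest ratio among the 37. Of the group's 9 genes, Usp1, which removes ubiquitin from PCNA, had the highest WT level at 150 CPM against 135 CPM, a ratio of 0.898 (0.879 to 0.918). Tipin, of the fork protection complex, was at 148 and 138 CPM, a ratio of 0.938 (0.918 to 0.958). The nuclease Exo1 was at 27.0 and 20.1 CPM, a ratio of 0.746 (0.707 to 0.787). Dtl, which directs CDT1 to degradation in S phase, Clspn, a checkpoint adaptor, and Ung, the uracil glycosylase, were also at least 1.2-fold lower, with ratios of 0.777, 0.805 and 0.812. Blm, the Bloom helicase, was the member at 20 CPM that was higher, at 52.8 CPM (51.4 to 54.1) and 57.8 CPM (56.4 to 59.1), a ratio of 1.09 (1.06 to 1.13), and it was 1.08 in male cells. Blm overlaps Ndufab1-ps on the opposite strand.

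The G1/S regulators went in opposite directions. E2f1, the activating transcription factor, was at 42.8 CPM (41.6 to 44.1) in the WT and 33.8 CPM (32.7 to 34.8) in the KO-labelled cells, a ratio of 0.788 (0.756 to 0.822). Both E-type cyclins, which activate CDK2 at the entry to S phase, stayed under 20 CPM. Ccne2 was at 17.3 and 13.2 CPM, a ratio of 0.763 (0.714 to 0.816). Ccne1 was at 12.3 CPM (11.7 to 13.0) and 18.4 CPM (17.6 to 19.2), a ratio of 1.49 (1.39 to 1.59), the highest of the 39. Without the 5% of cells with most UMIs the Ccne1 ratio over all cells was 1.06 and spanned 1 (0.972 to 1.15). In cells at or above the line at 20 described below, its ratio was 1.83. There it fell to 1.33 (1.22 to 1.45) without the deepest cells and to 1.54 after thinning. The Ccne1 difference thus shrank without the deepest cells but stayed beyond counting error in the cells above that line.

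Replication genes outside the set gave similar values. The 67 listed genes summed to 4358 and 3731 CPM, a ratio of 0.856 (0.853 to 0.860). Of the 50 at 20 CPM, 44 were lower, against 65.1% of all genes, and 21 were lower by 1.2-fold or more, against 15.1%. Their median log2 ratio was -0.25, against -0.07 for all genes. Lowest were Uhrf1, which recruits the maintenance methyltransferase, at 74.5 and 50.6 CPM, the nuclease-helicase Dna2 at 27.8 and 19.0 CPM, and the repressor E2f8 at 53.3 and 36.7 CPM. Highest were the origin subunit Orc4 at 29.0 and 30.8 CPM, the dNTP hydrolase Samhd1 at 50.7 and 53.3 CPM, and Rnaseh2a, of RNase H2, at 71.8 and 75.2 CPM. A list of 26 mitosis and G2 genes had a summed ratio of 0.917 (0.913 to 0.921).

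A lower sum can come from fewer cells with a high level or from a lower level in each, and the answer turned on where the line between cells was drawn. At 5 member UMIs per 10000 UMIs of the cell, the WT library had 95.3% of its cells (94.9 to 95.7) above the line and the KO-labelled library 93.8% (93.3 to 94.2). The level above it was 3985 CPM in the WT and 3526 CPM in the KO-labelled one, a ratio of 0.885 (0.881 to 0.889). Split in this way, 9.66% of the difference came from the share of the library's UMIs in cells above the line and nearly all of the rest from the level above it. In the cells above it 34 of 37 members at 20 CPM were lower, against 65.6% of all genes, and 13 were lower by 1.2-fold or more, against 14.9%. A line at 5 hardly divides the cells, however: 444 WT cells lay below it.

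The whole distribution of per-cell levels shows where the libraries parted. The 10th percentile was 7.90 per 10000 in the WT and 6.26 in the KO-labelled library, the 25th percentile 16.5 and 10.5, and the median 33.1 and 20.7. Toward the top the libraries came together, with a 75th percentile of 53.5 and 45.9, a 90th of 68.8 and 65.4, and a 99th of 91.0 and 90.3. The KO-labelled library thus had a peak of cells near 10 per 10000 where the WT curve was flat, while its highest cells reached the same level.

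**Figure D2:**
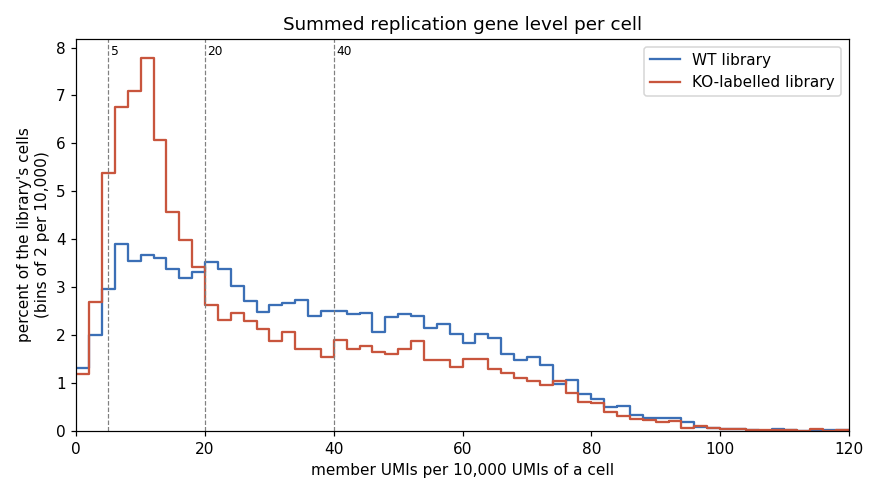
Percent of each library's kept cells by summed member UMIs per 10000 UMIs of the cell, in bins of 2, for the WT (blue) and KO-labelled (red) library; dashed lines mark 5, 20 and 40. The KO-labelled curve peaks between 5 and 20 and lies below the WT curve from 20 to beyond 60, and both curves end at about the same level.

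A line at 20 per 10000, chosen after this distribution had been seen, gave the other answer. At or above it were 6547 WT cells, 69.1% (68.2 to 70.0), and 5500 KO-labelled cells, 51.1% (50.1 to 52.0). The level in those cells was 4653 CPM in the WT and 4745 CPM in the KO-labelled one, a ratio of 1.02 (1.02 to 1.02 to 3 digits). Below the line the levels were 1225 and 1135 CPM, a ratio of 0.926 (0.913 to 0.940). The share of UMIs in cells above the line, 78.0% in the WT and 63.0% in the KO-labelled library, accounted for 108% of the difference, since the level above the line differed the other way. At 10 per 10000 that share accounted for 51.8%, and at 40 for 61.7%, where 41.1% of WT and 30.3% of KO-labelled cells were above and the level there had a ratio of 1.02. Within 10% of the line at 20 lay 6.84% of WT and 6.05% of KO-labelled cells, so these classes are ranges of a continuous score. Because the same genes set the line and give the level, the level above it is bounded by the choice.

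Cells were therefore also chosen by the 67 other replication genes, at the line that again took 69.1% of WT cells. This took 48.1% of KO-labelled cells, and the member level in the chosen cells had a ratio of 1.05. In both libraries each of the 39 members was higher in the cells chosen this way than in the rest. The range was 1.87 to 12.8-fold (median 3.54) in the WT and 1.55 to 19.8-fold (median 4.17) in the KO-labelled library. Both lists hold replication genes, and the share of all genes higher in these cells is not given, so nothing is read from that count. The reverse reading differed: in cells chosen by the members at 20, the 67 other genes had a summed ratio of 0.961 (0.957 to 0.965). Below that line their ratio was 0.845 (0.836 to 0.854).

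The lower share at 20 was also found with other cell filters, while the level above the line lay on either side of equality. The filter of at least 1000 genes and at most 5% mitochondrial UMIs left out 4487 WT and 2068 KO-labelled cells. Of the cells it kept, 78.0% in the WT and 55.7% in the KO-labelled library were at or above 20. In male cells the shares were 71.9% and 51.2%, and without the deepest 5% of cells 67.9% and 49.3%. Thinned to 3000 UMIs per cell, without 155 WT and 91 KO-labelled cells that were shallower, they were 70.1% and 54.5%. The level above the line had a ratio of 0.976 after thinning and 0.991 with ribosomal protein and mitochondrial genes left out of the totals, and 1.08 with TMM scaling. Cells below the line were shallower in both libraries, with a median of 6566 UMIs in the WT and 6990 in the KO-labelled library, against 11192 and 11815.5 above it. Their median mitochondrial share was 5.34% and 4.53%, against 4.84% and 4.22% above the line. The part of free RNA, RNA content and doublets in these values was not tested. No level of a cell type that should lack replication transcripts is given, as cells rich in neutrophil genes were few and 59.3% of those in the KO-labelled library were at or above the line.

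Per gene, the choice of cells at 20 or above moved every member upward: all 39 ratios were higher there than in all cells. All 39 reached 20 CPM in these cells; 17 were lower in the KO-labelled library, against 64% of all genes, and 22 were higher. These cells were chosen in both libraries by the sum of the same genes, which draws the members' ratios toward equality, so nothing is read from the background shares here. None was at least 1.2-fold lower, against 13.9% of all genes, and 2 were at least 1.2-fold higher, against 5.63%. The median log2 ratio was 0.03, against -0.06 for all genes. With TMM scaling 8 of the 39 were lower, against 41.9% of all genes. Lowest were Mcm2 at 0.880 (0.855 to 0.906) and Chaf1a at 0.889, as in all cells, with Rfc2 at 0.891 and Mcm10 at 0.895 next. At the other end were Ccne1 at 1.83 (1.70 to 1.95), Rrm2 at 1.21 (1.17 to 1.26) and Cdc45 at 1.19 (1.14 to 1.25). Without the deepest 5% of cells Ccne1 was at 1.33 and Rrm2 at 1.13, and after thinning they were at 1.54 and 1.13. Summed by role, the ratios in these cells ran from 1.0 for fork genes to 1.09 for the G1/S regulators. The latter summed to 90.4 CPM in the WT and 98.8 CPM in the KO-labelled library, of which Ccne1 gave 15.6 and 28.5 CPM.

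**Figure D3:**
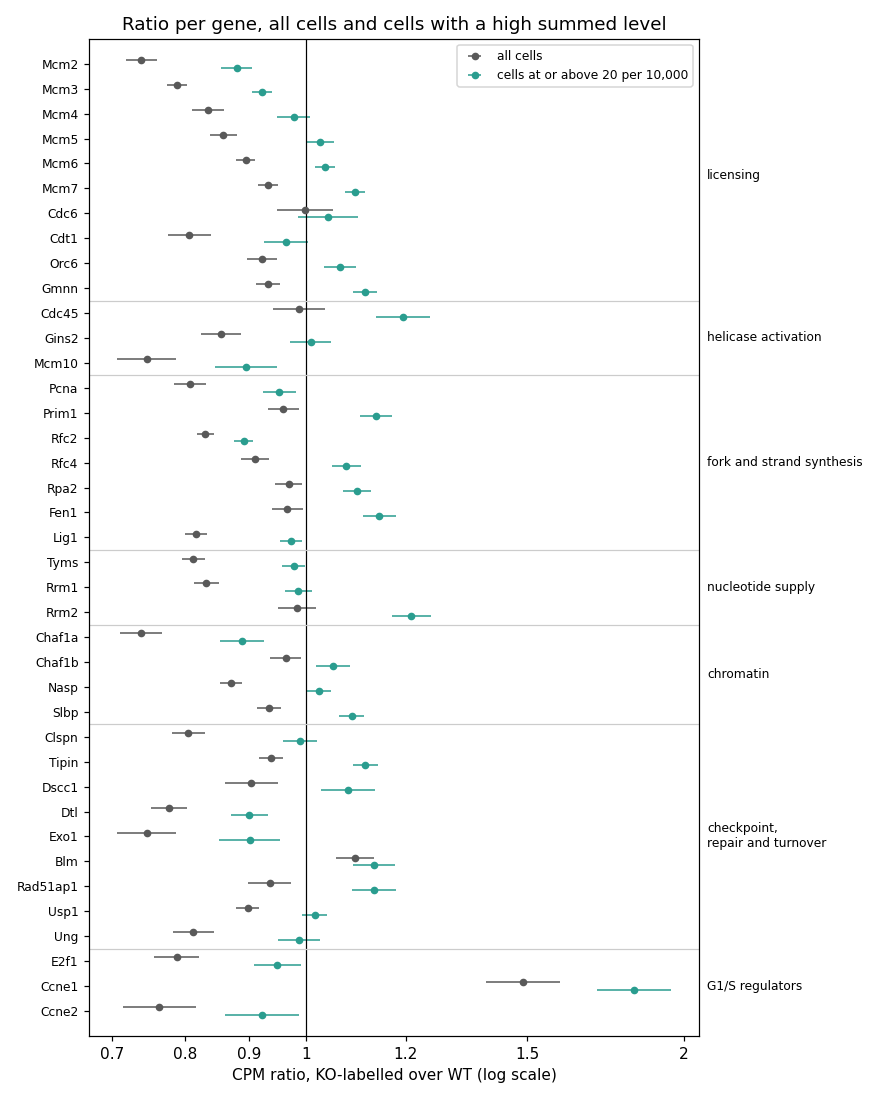
CPM ratio of the KO-labelled to the WT library for each member on a log axis, in all cells (grey) and in cells at or above 20 member UMIs per 10000 (green), with exact 95% counting intervals; the vertical line marks equality. Each green point lies to the right of its grey point, and green points range from 0.880 for Mcm2 to 1.83 for Ccne1.

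Cells below the line differed in their mitosis and G2 genes as well. The summed level of those 26 genes in them was 4809 CPM in the WT and 3345 CPM in the KO-labelled library, while in cells from 20 to 40 it was 4831 and 4586 CPM and in cells at 40 or above 2621 and 2928 CPM. When both lists were read at 20 per 10000, a split chosen after these values were seen, 21.6% of WT cells (20.7 to 22.4) were low on both, against 39.1% of KO-labelled cells (38.2 to 40.1). Cells low on members and high on mitosis genes made up 9.32% of WT and 9.78% of KO-labelled cells. The surplus of KO-labelled cells below the line was thus almost wholly in cells low on both lists, whose median depth was 5853 UMIs in the WT and 6622 in the KO-labelled library.

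Below the line, 24 members reached 20 CPM; 19 were lower in the KO-labelled library, against 61.9% of all genes, and 5 were lower by 1.2-fold or more, against 17.4%. Nucleotide supply stood out among the roles with a summed ratio of 0.723 (0.686 to 0.761). Cdc6, on chr11:98907801-98923940, was the member that went furthest the other way, and it is described here because its values stood out. In cells below the line it was at 5.33 CPM (4.46 to 6.32, 132 UMIs) in the WT and at 13.5 CPM (12.5 to 14.7, 598 UMIs) in the KO-labelled cells, a ratio of 2.54 (2.1 to 3.09). In cells at or above the line it was at 31.2 and 32.5 CPM, a ratio of 1.04 (0.985 to 1.1). The equal Cdc6 levels of the whole libraries thus combine fewer cells above the line with a higher level below it. The ratio below the line was 2.80 with the stricter cell filter, 2.62 without the deepest cells and 2.72 in male cells.

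Marker groups were read from 1 or more UMIs of Procr (a stem cell surface receptor), Pf4 (a platelet chemokine of megakaryocytes), Mpo (a granule enzyme of granulocyte and monocyte precursors) and Car1 (an erythroid carbonic anhydrase). These groups are not cell types: 2886 WT and 2286 KO-labelled cells held at least 2 of the markers. Of cells with 3 or more Mpo UMIs, 46.4% in the WT (median 15657.5 UMIs) and 21.2% in the KO-labelled library (median 15260) also held a Pf4 UMI. Pf4 was at 1483 CPM in the WT and 485 CPM in the KO-labelled library, and Pf4-positive cells were 63.7% and 45.9% of the libraries. The other megakaryocytic markers listed went the other way, with Itga2b at 176 and 222 CPM and Gp9 at 51.9 and 73.0 CPM. How much of a marker's reach comes from free RNA was not tested.

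The summed member level was lower in the KO-labelled library in each of the 4 groups. In the 938 WT and 788 KO-labelled Procr-positive cells it was 2943 and 2631 CPM, a ratio of 0.894 (0.878 to 0.910). Pf4-positive cells were at 4003 and 3541 CPM, a ratio of 0.885, and Mpo-positive cells at 4016 and 3544 CPM, a ratio of 0.883. Car1-positive cells differed least, at 3953 and 3732 CPM, a ratio of 0.944. Cells with none of the 4 markers differed most, at 3567 and 2972 CPM, a ratio of 0.833, and made up 15.6% and 25.8% of the cells. These directions were not all stable: the Procr-positive ratio was 1.02 after thinning, and the Car1-positive ratio 1.01 with TMM scaling. Without the deepest 5% of cells the Car1-positive ratio was 0.859, close to those of Pf4- and Mpo-positive cells. With the stricter filter and after thinning it stayed above theirs, and in male cells it lay below them. Members at least 1.2-fold lower numbered 9 of 35 at 20 CPM in Procr-positive cells, against 17.2% of all genes, 13 of 37 in Pf4-positive cells, against 15.3%, and 12 of 38 in Mpo-positive cells, against 15.1%. They were 7 of 38 in Car1-positive cells, against 16.1%, and 19 of 37 in cells without a marker, against 18.2%. Of the 35 members at 20 CPM in every group, 21 were lower in all 4, against 42.4% of all genes; the groups share cells.

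Inside the groups the share of cells at 20 or above was lower in the KO-labelled library. It was 42.1% in the WT and 32.6% in the KO-labelled library for Procr-positive cells, 74.8% and 57.2% for Pf4-positive, 78.6% and 60.0% for Mpo-positive and 72.6% and 55.8% for Car1-positive cells. The KO-labelled share was 0.774, 0.765, 0.763 and 0.769 of the WT share in these groups, and 0.713 in cells without a marker (57.5% and 41.0%). The lower share was also seen in each group with the stricter filter, without the deepest cells, after thinning and in male cells. The share ratios were less alike there: in male cells they ran from 0.614 in Car1-positive to 0.749 in Mpo-positive cells. With the stricter filter the Procr-positive shares were 74.0% of the 208 WT and 41.9% of the 475 KO-labelled cells kept, a share ratio of 0.566. In cells with 3 or more Procr UMIs, 73 WT and 38 KO-labelled, the shares were 38.4% and 13.2%, a share ratio of 0.343. Cells with 1 of the markers alone had share ratios from 0.745 for Pf4 to 0.845 for Procr. Mitosis and G2 genes did not follow in Procr-positive cells, where 23 of the 24 at 20 CPM were higher in the KO-labelled library. Their median log2 ratio there was 0.21, against -0.05 for all genes. In Pf4-, Mpo- and Car1-positive cells it was -0.08, -0.06 and -0.05, against -0.07, -0.07 and -0.06 for all genes. The share of all genes that were higher in Procr-positive cells is not given here. The mitosis genes were read by group in the main setting only.

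The level above the line was 4213 and 4539 CPM in Procr-positive cells, a ratio of 1.08 (1.06 to 1.1). In cells with Procr alone it turned to 0.974 (0.932 to 1.02), and with 3 or more Procr UMIs it was 1.43 (1.27 to 1.6), over 28 WT and 5 KO-labelled cells. In Pf4- and Mpo-positive cells the ratio was 1.02, in Car1-positive cells 1.06, and in cells without a marker 0.989. The UMI share of cells above the line therefore accounted for 173% of the difference in Procr-positive and 177% in Car1-positive cells, where the level above the line was higher in the KO-labelled library, and for 108%, 105% and 96% in Pf4-positive, Mpo-positive and unmarked cells. It was 119% in cells with Procr alone and 354% in cells with 3 or more Car1 UMIs, where the level above the line had a ratio of 1.08. Below the line the Procr-positive ratio was 1.12, while those of Pf4-, Mpo- and Car1-positive cells were 0.914, 0.908 and 0.879. The split by group depended on the line. With the line at 5 the UMI share accounted for -7.67% in Procr-positive, 9.48% in Pf4-positive, 9.92% in Mpo-positive and 22.6% in Car1-positive cells. At 40 it accounted for 10.0%, 59.6%, 59.3% and 42.9% in the same order. In unmarked cells it was -1.46% at 5 and 76.3% at 40. Below 40 the Procr-positive level had a ratio of 0.768.

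**Figure D4:**
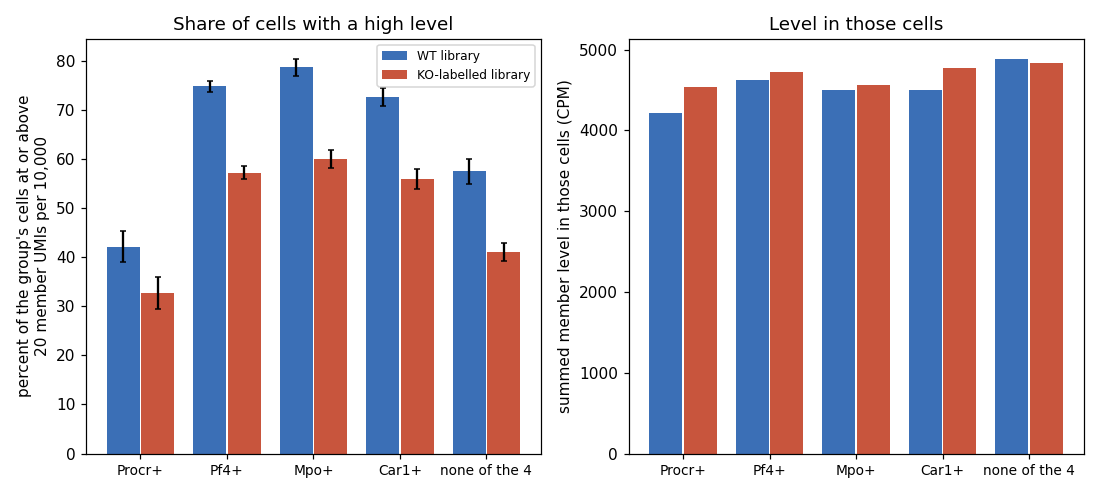
Left, percent of each marker group's cells at or above 20 member UMIs per 10000 in the WT (blue) and KO-labelled (red) library, with exact 95% binomial intervals; right, the summed member level of those cells in CPM, without intervals. The left bars are lower in the KO-labelled library in all 5 groups, and the right bars are nearly level, with the lowest at 4213 CPM in Procr-positive WT cells.

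Cdc6 and Ccne1 had their largest differences in different groups. Below the line, Cdc6 in Procr-positive cells was at 5.19 CPM (20 UMIs) in the WT and 24.0 CPM (102 UMIs) in the KO-labelled cells, a ratio of 4.63 (2.85 to 7.90). It had a ratio of 2.53 in Pf4-positive, 2.55 in Mpo-positive and 1.37 (0.977 to 1.95) in Car1-positive cells, and 0.717 (0.464 to 1.12) in cells with 3 or more Car1 UMIs. With 3 or more Mpo UMIs its ratio was 1.47 and spanned 1 (0.693 to 3.46). Ccne1, on chr7:38097984-38107534, had its highest level above the line in Car1-positive cells, 23.7 CPM in the WT and 60.0 CPM in the KO-labelled one, a ratio of 2.53 (2.31 to 2.77). With 3 or more Car1 UMIs it was at 34.1 and 81.1 CPM. In Procr-positive cells above the line it was at 10.2 CPM (63 UMIs) in the WT with a ratio of 1.36 that spanned 1 (0.921 to 2.01). The Ccne1 ratio over all cells above the line was 1.83 in male cells also, and 1.33 without the deepest 5% of cells. Rrm2 above the line likewise had its highest ratio in Car1-positive cells, 1.48 (1.39 to 1.57), and Mcm2 its lowest in Procr-positive cells, 0.787 (0.685 to 0.902).

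**Figure D5:**
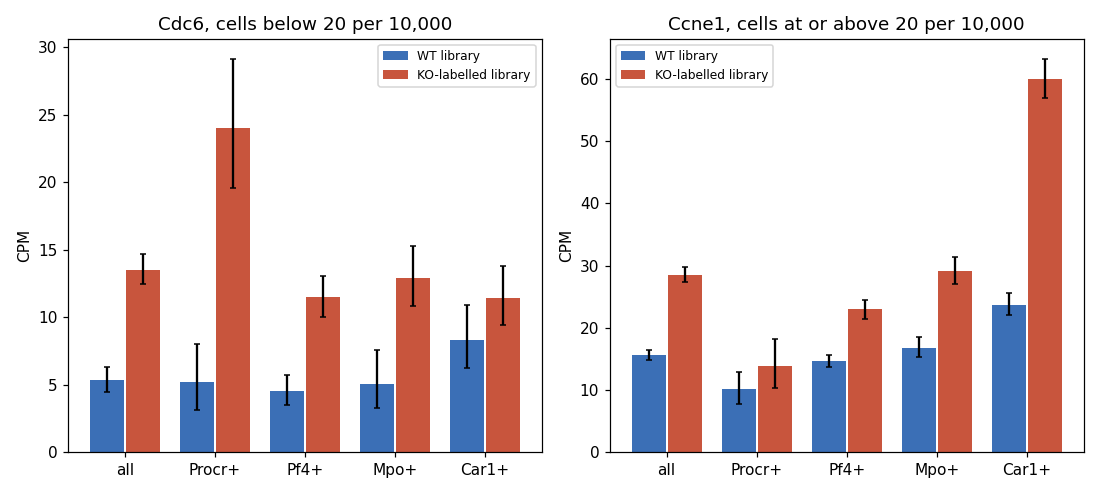
Cdc6 in cells below 20 member UMIs per 10000 (left) and Ccne1 in cells at or above 20 (right), in CPM, for all cells and by marker group in the WT (blue) and KO-labelled (red) library, with exact 95% Poisson intervals. The largest gap for Cdc6 is in Procr-positive cells (5.19 and 24.0 CPM) and for Ccne1 in Car1-positive cells (23.7 and 60.0 CPM).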

How the data were processed

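Cells were 3′ tagged with the 10x v2 kit, per the labels' protocols. The authors deposited raw UMI counts, 1 row per gene and 1 column per barcode. Cell Ranger 2.1.1 and mm10 are named in the submitters' processing notes; the matrix header names software version 3.1.0. The files hold cell barcodes with no cell type names, doublets were not removed, and counting error is the only error an interval can give. Counts were summed over cells that had 500 or more genes and no more than 10% mitochondrial UMIs, and divided by those cells' total. Ratios have exact conditional binomial intervals, levels exact Poisson and shares Clopper-Pearson intervals at 95%. The difference in level was split by symmetric weights into the UMI share of cells above a line and the levels on either side. The scripts were tested on simulated data. The tools were scipy 1.17.1, pandas 2.3.3 and numpy 2.4.6 under Python 3.11.15, and edgeR 4.0.16 for TMM factors only.

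All 39 members are accounted for by role; named with values are the 2 with the highest WT level in each role, the 3 lowest and highest ratios at 20 CPM or more in either library, and the 3 lowest and highest other replication genes. Up to 4 promoters were printed, of the members with the highest WT level whose window held the E2F element. Other members were named after their values were seen. The members and lists were chosen with earlier results of these data known. Of the members, 15 overlap a gene on the opposite strand, and 3 have a named pseudogene. Alternatives were TMM scaling, totals without ribosomal protein and mitochondrial genes, stricter cell filters (at least 1000 genes, at most 5% mitochondrial UMIs), leaving out the 5% deepest cells, thinning to 3000 UMIs, male cells, lines at 2, 10, 20 and 40 per 10000, cells chosen by other genes, and 3 or more UMIs of a marker or 1 marker only, and, added after seeing the data, leaving out cells rich in basophil or mature neutrophil genes.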

Additional observations from a re-analysis of the deposited data

Results flagged for a closer look

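Among cells below 20 member UMIs per 10000, the marker groups went in opposite directions by their counting intervals. The summed replication level of Procr-positive cells was higher in the KO-labelled library, with a ratio of 1.12, and those of Pf4-positive, Mpo-positive and Car1-positive cells were lower, with ratios of 0.914, 0.908 and 0.879. The groups share cells, each library is 1 sample, and the difference between the groups was not tested.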

How the results depend on the processing

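No paired analysis was possible because each genotype has 1 library. The values below are ratios of the KO-labelled to the WT library unless named; the cause of each change was not tested. TMM factors do not apply to shares of cells. The summed level in all cells was 0.935 with TMM scaling, 0.908 with totals lacking ribosomal protein and mitochondrial genes, 0.856 with the stricter filter, 0.850 without the deepest cells, 0.813 thinned, 0.852 in male cells and 0.880 with marker groups weighted equally. In the same order of the first 6 settings, the level at 5 per 10000 or above was 0.947, 0.909, 0.871, 0.862, 0.847 and 0.873, that of Pf4-positive cells 0.937, 0.916, 0.872, 0.867, 0.811 and 0.843, of Mpo-positive cells 0.939, 0.916, 0.869, 0.863, 0.808 and 0.899, and of Car1-positive cells 1.01, 0.974, 0.933, 0.859, 0.859 and 0.834. Procr-positive cells were at 0.943 with TMM scaling, 0.917 with reduced totals, 0.770 with the stricter filter, 1.02 thinned, 0.797 in male cells and 0.636 at 3 or more Procr UMIs. At 3 or more UMIs Pf4- and Car1-positive cells were at 0.895 and 0.975, and with 1 marker only Pf4-, Mpo- and Car1-positive cells were at 0.857, 0.854 and 0.966.

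The share of cells at 5 or above (main ratio 0.984) was 0.999 with reduced totals, 0.968 with the stricter filter, 0.956 thinned, 0.965 in male cells and 0.948 in cells chosen by other genes; with lines at 2, 10, 20 and 40 it was 1.0, 0.891, 0.739 and 0.738. At those lines the level above was 0.874, 0.935, 1.02 and 1.02, and it was 0.896 in cells chosen by other genes. The level below was 0.930, 0.926 and 0.825 at 2, 20 and 40, and 1.31 with the stricter filter. The percent of the difference from the share at 5 (main 9.66%) was 19.5% with TMM scaling, 1.90% with reduced totals, 12.0% with the stricter filter, 9.18% without the deepest cells, 20.2% thinned, 15.4% in male cells and 20.02% in cells chosen by other genes, and -0.11%, 51.8%, 108% and 61.7% at the 4 other lines. At 20, added after the data were seen, the share was 0.845 with reduced totals, 0.714 with the stricter filter, 0.777 thinned, 0.712 in male cells and 0.695 in cells chosen by other genes. The level above was 1.08 with TMM scaling, then 0.991, 1.01, 0.976, 1.03 and 1.05 in that order. The percent from the share was 218% with TMM scaling, 92.6%, 99.3%, 87.2%, 112% and 122% likewise, and 104% without the deepest cells.

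Members at least 1.2-fold lower numbered 15, or 5 with TMM scaling and 8 with reduced totals, and other replication genes 21, or 12 with TMM scaling. With TMM scaling Prim1 turned to 1.03, Rpa2 to 1.04, Fen1 to 1.03, Chaf1b to 1.03, Tipin to 1.0 and Rad51ap1 to 1.0; with reduced totals Rpa2 turned to 1.01, Fen1 to 1.0 and Chaf1b to 1.0. Without cells rich in basophil or mature neutrophil genes, a setting added after the data were seen, the summed level, the share and level at 20 and the percent from the share moved by less than their intervals or by under 1%. Members with few UMIs below the line are limited by depth.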
